A study of Mus musculus with 4 samples.

Results

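The genes described here are 10 genes of intraepithelial lymphocytes (IELs) and of their epithelial partners, out of 56748 genes listed for the SI. They were taken from the count table by gene name: the lymphocyte genes Trdc, Tcrg-C1, Itgae, Cd160 and Cd244a, the butyrophilin-like genes Btnl1, Btnl2, Btnl4 and Btnl6, and Ahr, which both cell types use. Of the 10 names, 9 had a row, and Tcrg-C1 was found by its identifier, ENSMUSG00000076749, which the table lists as Trgc1. All 10 were among the 16094 genes with enough reads to be tested, although Tcrg-C1, with 7 counts in 1 WT library, passed that filter through its p53-/- libraries. The libraries came from 2 WT (p53+/+) mice, called libraries 7 and 8, and 2 p53-/- mice, called libraries 9 and 10, all of which had received 12 Gy TBI and were collected at 1 day. The mice were 8 to 12 weeks old and matched for age and gender, and the p53 deficiency is germline, so that lymphocytes carry it as well as the epithelium. Poly-A RNA of whole SI tissue was sequenced, so fewer cells of a type and less RNA per cell cannot be told apart in any value below. No unirradiated SI was analysed here.

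IELs are T cells that live between the enterocytes of the SI. Many of them carry the gamma delta T cell receptor or the CD8 alpha homodimer and are held in place by an integrin, made of the products of Itgae and Itgb7, that binds E-cadherin. Enterocytes of the mouse display butyrophilin-like proteins, and a pair made by Btnl1 and Btnl6 is known to select and maintain IELs whose gamma chain uses the Trgv7 segment. The aryl hydrocarbon receptor, encoded by Ahr, senses ligands from diet and microbes and is known to be needed for the upkeep of IELs.

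Total counts ran from 15005479 to 22173164 per library. Trp53 was at 57.7 and 47.1 CPM in WT libraries and at 19.8 and 22.5 CPM in p53-/- libraries, where CPM is the counts scaled to a common library size by TMM (log2 fold change -1.31, adjusted p = 0.0602, edgeR quasi-likelihood test, Benjamini-Hochberg). Library 10 stood apart from the other 3. The summed level of 10 B cell genes was 2.48 and 3.05 CPM in WT libraries, 28.7 CPM in library 9 and 584 CPM in library 10, and 9 genes of follicles and M cells summed to 282 CPM there against 84.0 CPM in library 9. Xist, the RNA of the silenced X in female cells, had 588 counts in library 10 and 0 to 4 in each other library, while the Y-linked gene Ddx3y was at 30.6 to 32.4 CPM in all 4 libraries. Both RNAs were thus plainly present in library 10 alone, and the cause was not tested. The 18S ribosomal RNA gene Rn18s-rs5 took 4.59% of the counts in library 10 and 0.296% to 0.863% elsewhere. Log2 fold changes of the 10 genes are therefore also given without library 10.

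The 5 lymphocyte genes were higher in both p53-/- libraries than in both WT libraries, with ratios of mean CPM from 2.76 to 7.81, whereas the 4 butyrophilin-like genes were abundant in every library and had ratios from 0.724 to 1.07. None of the 10 passed the adjusted threshold of 0.05 in edgeR's quasi-likelihood test, in which 0.298% of the tested genes were called higher and 0.193% lower in p53-/- SI. An unadjusted p under 0.05 was found for 7 of the 10 genes, against 18% of all tested genes. The p53-/- libraries lay above the WT libraries for 6 of the 10 genes, a pattern seen for 26.4% of all tested genes, and below them for 2, against 24.4%. The median log2 fold change was 1.73 for the 5 lymphocyte genes and -0.24 for the 4 butyrophilin-like genes, beside -0.01 for all tested genes.

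**Figure D1:**
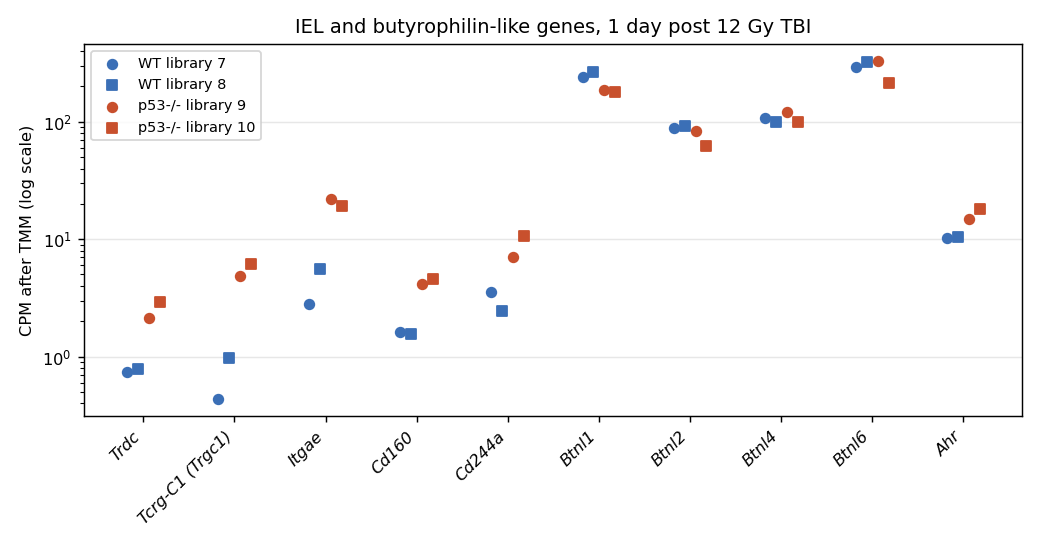
Level of each of the 10 genes in each library, in CPM on a log axis; blue marks WT and orange p53-/- libraries, and each point is 1 mouse. The orange points lie above the blue points for the 5 lymphocyte genes and Ahr, below them for Btnl1 and Btnl2, and among them for Btnl4 and Btnl6.

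The receptor genes come first among the lymphocyte genes. Trdc, the constant region of the delta chain, was at 0.743 and 0.779 CPM in WT libraries and at 2.15 and 2.93 CPM in p53-/- libraries. These levels rest on 12 and 12 counts in WT and 49 and 59 counts in p53-/- SI, and the genotypes did not overlap. Of its windows of 50 bases 6.68% also occur in other genes. Of its windows of 100 bases 2.87% occur in Trdv5, which had at most 3 counts in any library. The log2 fold change was 1.73 ± 0.509 (SE, adjusted p = 0.181, edgeR quasi-likelihood test, Benjamini-Hochberg). Tcrg-C1, the constant region of a gamma chain, was at 0.433 and 0.973 CPM in WT libraries and at 4.82 and 6.17 CPM in p53-/- libraries. Both p53-/- libraries, with 110 and 124 counts, were well above both WT libraries, with 7 and 15 counts. Its log2 fold change, 2.96 ± 0.573, was the highest of the 10 (SE, adjusted p = 0.105 in the same edgeR test), and it was 2.50 without WT library 7 and 3.64 without WT library 8.

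The reads of Tcrg-C1 could have been shared with its copies. The transcript is 96.1% identical to that of Tcrg-C2 and 97.2% to that of Tcrg-C3 over the aligned bases, and 34.2% of its windows of 50 bases occur in 1 of them without a mismatch (8.24% of windows of 100 bases). The first 200 coding bases of Tcrg-C1 and Tcrg-C2 in the GENCODE M21 transcripts are shown because the level of each gene depends on the few bases that tell them apart, which are in capitals (6 of 200).
Tcrg-C1: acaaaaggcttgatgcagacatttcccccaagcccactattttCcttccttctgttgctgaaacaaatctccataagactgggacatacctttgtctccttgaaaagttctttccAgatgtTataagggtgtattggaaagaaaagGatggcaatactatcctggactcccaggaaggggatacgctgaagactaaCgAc
Tcrg-C2: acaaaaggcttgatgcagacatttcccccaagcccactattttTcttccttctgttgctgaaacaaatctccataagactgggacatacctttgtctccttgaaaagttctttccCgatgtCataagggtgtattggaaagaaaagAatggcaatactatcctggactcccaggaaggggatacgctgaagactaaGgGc

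The other gamma and delta segments were read in the same way. Trgc2, listed so for Tcrg-C2, was at 0.557 and 0.714 CPM in WT libraries and at 5.74 and 7.01 CPM in p53-/- libraries (log2 fold change 3.31, standard error 0.463). Trgc4, whose transcript is 71.3% identical to that of Tcrg-C1 and shares no window of 50 bases with another gene, had 5 and 7 counts in WT libraries and 69 and 67 counts in p53-/- libraries. Trgc3 had 5 counts in library 9 and 0 in the others. The 3 constant regions Tcrg-C1, Trgc2 and Trgc4 were thus all higher in both p53-/- libraries, and this includes Trgc4, whose windows are not shared.

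Variable segments were sparse. Trgv7, the segment of the IELs that Btnl1 and Btnl6 select, had 6 and 1 counts in WT libraries and 25 and 18 counts in p53-/- libraries (log2 fold change 2.15, standard error 0.872). Trgv1 had 0 and 1 counts against 15 and 11, and Trdv4 had 1 and 0 counts against 51 and 21. Trgv2 was not detected in WT libraries and had 29 and 11 counts in p53-/- libraries, which is at least 4.78-fold higher with 3 counts allowed in each WT library. Over all 23 gamma and delta segments in the table, the summed level was 1.36 and 1.49 CPM in WT libraries and 15.1 and 14.0 CPM in p53-/- libraries. Of the 23, 6 passed the filter, and all 6 needed their p53-/- libraries to pass it, so counts over them are no measure of the list. None passed the threshold (adjusted p from 0.0587 to 0.285, edgeR quasi-likelihood test, Benjamini-Hochberg), and 5 had an unadjusted p under 0.05, against 18% of all tested genes.

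Among the surface molecules, Itgae encodes the integrin chain also called CD103. It was at 2.78 and 5.58 CPM in WT libraries and at 22 and 19.3 CPM in p53-/- libraries. The lowest p53-/- level was 3.47 times the highest WT level, and library 10 was below library 9. The log2 fold change was 2.31 ± 0.407 (SE), with the lowest adjusted p of the 10 genes, 0.0913 in that edgeR test. Itgb7, the partner chain, was at 1.18 and 3.63 CPM in WT libraries and at 23.4 and 34.0 CPM in p53-/- libraries (log2 fold change 3.58). Cdh1, which encodes the ligand E-cadherin on enterocytes, was at 1251 and 928 CPM in WT libraries and at 899 and 763 CPM in p53-/- libraries (log2 fold change -0.39). Both integrin chains were therefore higher, and their ligand slightly lower, in p53-/- libraries, and none of the 3 passed the threshold. Cdh1 is also 1 of the 10 epithelial genes read below, whose median log2 fold change was -0.46. The part of leukocytes other than IELs in the levels of Itgae and Itgb7 was not tested.

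Cd160, a receptor of IELs and NK cells that binds the product of Tnfrsf14, was at 1.61 and 1.56 CPM in WT libraries and at 4.16 and 4.58 CPM in p53-/- libraries. The libraries of each genotype were close to each other, and the genotypes were apart by a log2 fold change of 1.46 ± 0.426 (SE, adjusted p = 0.179, edgeR quasi-likelihood test, Benjamini-Hochberg). Tnfrsf14, an epithelial and leukocyte receptor of the TNF family, was at 10.5 and 15.8 CPM against 21.3 and 26.3 CPM (log2 fold change 0.86). Btla, a further receptor for the same protein on B and T cells, had 0 and 13 counts in WT libraries, 41 in library 9 and 468 in library 10. Btla thus followed the B cell genes in standing out in library 10, and Cd160 did not.

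Cd244a, a receptor of the SLAM family on IELs and NK cells, was at 3.53 and 2.47 CPM in WT libraries and at 7.01 and 10.6 CPM in p53-/- libraries (log2 fold change 1.56, standard error 0.423). Its ligand gene Cd48, found on most leukocytes, was at 0.990 and 1.49 CPM against 4.82 and 12.4 CPM. Sh2d1a, the adaptor of these receptors, had 1 and 1 counts in WT libraries, 5 in library 9 and 59 in library 10. The level of Cd244a in library 10 was 1.52 times that in library 9, a smaller step than for Cd48 or Sh2d1a.

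**Figure D2:**
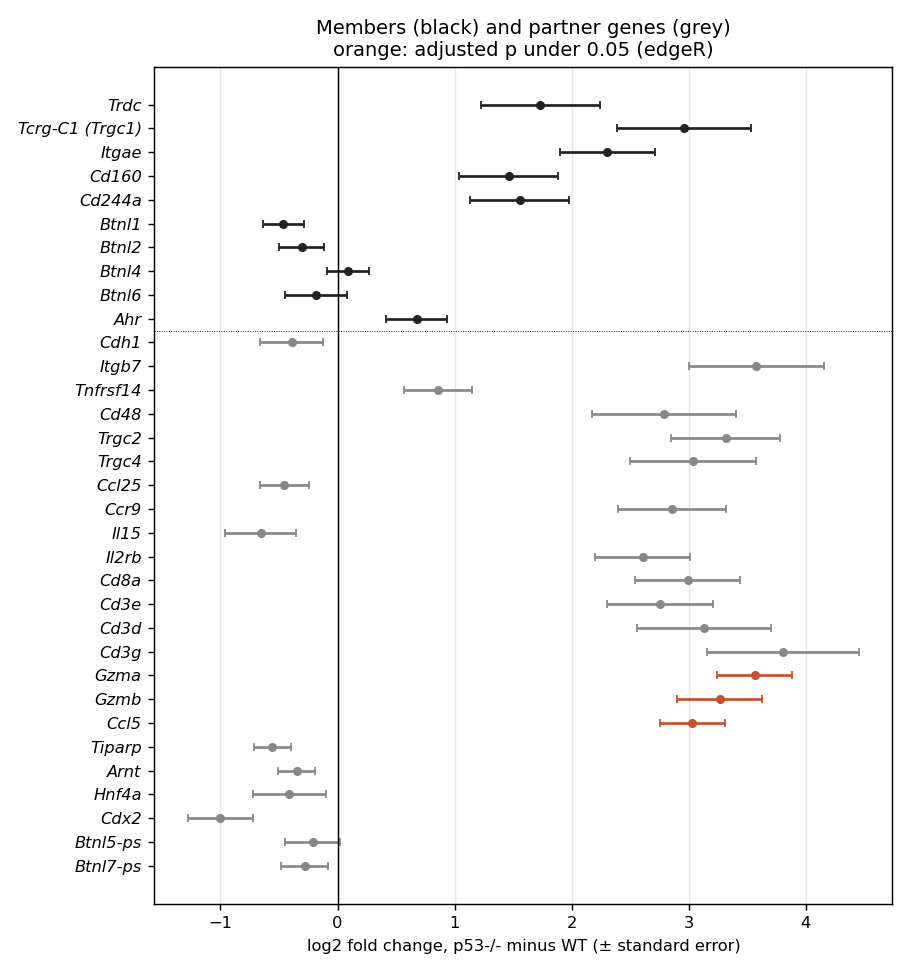
Log2 fold change (p53-/- minus WT) with its standard error for the 10 genes, in black above the dotted line, and for 23 partner genes, in grey below it, with 3 that passed the threshold in orange. The lymphocyte genes lie between 1.46 and 2.96, the butyrophilin-like genes between -0.47 and 0.09, and Gzma, Gzmb and Ccl5 between 3.03 and 3.56.

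The lymphocyte genes were next read against the T cells present. The genes Cd3d, Cd3e and Cd3g, which encode the signalling chains of every T cell receptor, together had 41 and 51 counts in WT libraries and 456 and 714 counts in p53-/- libraries. Per 100 of these counts, Trdc was at 29.3 and 23.5 in WT libraries and at 10.7 and 8.26 in p53-/- libraries. Cd160 was at 63.4 and 47.1 against 20.8 and 12.9 on this scale, and Cd244a at 139 and 74.5 against 35.1 and 30.0. These 3 genes were thus lower relative to the Cd3 genes in p53-/- SI, with log2 differences of -1.48, -1.74 and -1.65, although their CPM was higher. Tcrg-C1 was at 17.1 and 29.4 against 24.1 and 17.4 per 100, a log2 difference of -0.13 with overlapping genotypes, which was 0.11 without library 10. Itgae was at 110 and 169 against 110 and 54.5 per 100, a log2 difference of -0.81 with overlapping genotypes, which was -0.31 without library 10. No test was run on these ratios, since an exact permutation test of 2 against 2 libraries gives no p below 0.333.

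**Figure D3:**
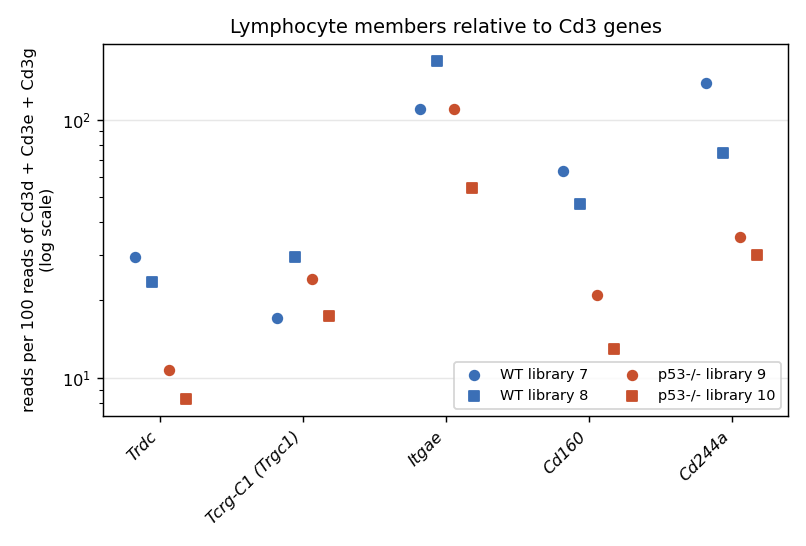
Counts of each lymphocyte gene per 100 summed counts of Cd3d, Cd3e and Cd3g in each library, on a log axis; blue marks WT and orange p53-/- libraries. Orange points lie below blue points for Trdc, Cd160 and Cd244a and among them for Tcrg-C1 and Itgae.

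The alternative denominator, the summed counts of Trac, Trbc1 and Trbc2, which encode the constant regions of the alpha and beta chains, gave log2 differences of -1.71 for Trdc, -1.97 for Cd160, -1.89 for Cd244a and -0.37 for Tcrg-C1. Itgae was at 129 and 169 per 100 of these counts in WT libraries and at 115 and 44.0 in p53-/- libraries, a log2 difference of -1.05. The genotypes thus overlapped for Itgae with the Cd3 genes below the line and did not with the alpha and beta genes. The ratio of the gamma constant regions Tcrg-C1, Trgc2 and Trgc4 to Trbc1 and Trbc2 was 87.5 and 143 per 100 in WT libraries, 101 in library 9 and 55.1 in library 10. Only library 10 was below the WT libraries in this ratio. Genes of circulating naive T cells, which are no IELs, summed to 11.8 and 23.4 CPM in WT libraries, 28.8 CPM in library 9 and 108 CPM in library 10, and all 6 were detected. Library 9 was close to WT library 8 in that sum, and the part of such cells in the ratios was not tested.

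Coreceptor genes were also compared. Cd8a, whose product forms the alpha homodimer of many IELs, was at 1.55 and 3.44 CPM in WT libraries and at 19.9 and 19.8 CPM in p53-/- libraries (log2 fold change 2.99, adjusted p = 0.0658, edgeR quasi-likelihood test, Benjamini-Hochberg). Cd8b1, which is needed for the heterodimer of conventional CD8 T cells, had 0 counts in both WT libraries and 44 and 90 counts in p53-/- libraries, at least 16.8-fold higher with 3 counts allowed in each WT library. Per 100 counts of Cd8a, Cd8b1 was at 9.71 in library 9 and 22.6 in library 10, against limits of 12.0 and 5.66 that a count of 0 allows in WT libraries 7 and 8. Library 10 was above both limits, and library 9 above that of WT library 8 but below that of WT library 7. Cd4, the coreceptor of helper T cells, was at 1.73 and 5.0 CPM against 9.47 and 24.8 CPM. Over 14 genes of the alpha beta and common receptor complex, 13 were higher in both p53-/- libraries (26.4% of all tested genes), 0 passed the threshold and 13 had an unadjusted p under 0.05 (18% of all tested genes). Of these 14, 6 reached the filter's count in fewer than 2 WT libraries and passed it through p53-/- libraries, as did 11.9% of all tested genes.

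The only pathway genes that passed the threshold were 3 genes of killing and recruitment. Gzma, which encodes a granzyme of cytotoxic granules, was at 4.58 and 8.05 CPM in WT libraries and rose to 66.0 and 83.2 CPM in p53-/- libraries. Its log2 fold change was 3.56 ± 0.320 (SE, adjusted p = 0.0296, edgeR quasi-likelihood test, Benjamini-Hochberg). Gzmb, a further granzyme, rose from 2.66 and 4.67 CPM to 30.2 and 40.3 CPM (log2 fold change 3.27, adjusted p = 0.0453 in the same edgeR test). Ccl5, a chemokine stored by memory T cells and IELs, rose from 4.89 and 6.36 CPM to 38.6 and 53.4 CPM (log2 fold change 3.03, adjusted p = 0.0296 in the same edgeR test). In all 3 the p53-/- libraries were close to each other and far above WT. Read per 100 counts of the Cd3 genes, Gzma was at 180 and 243 in WT libraries and at 330 and 234 in p53-/- libraries, Gzmb at 105 and 141 against 151 and 114, and Ccl5 at 193 and 192 against 193 and 150. On that scale the genotypes overlapped for each of the 3 genes.

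The list of NK-type receptors and killing genes held 26 genes, of which 20 were tested, 3 rose (0.298% of all tested genes), 0 fell and 18 were higher in both p53-/- libraries (26.4% of all tested genes). Of the 20, 13 passed the filter only with their p53-/- libraries, which raises these counts. Cd7, an early T cell and IEL antigen, was at 3.47 and 4.54 CPM against 19.4 and 21.5 CPM with an adjusted p of 0.0541 in the edgeR quasi-likelihood test. Klre1, an NK-type receptor, had 0 counts in WT libraries and 12 and 14 in p53-/- libraries, at least 3.21-fold higher with 3 counts allowed in each WT library. Beside these genes, the defining markers of NK cells Ncr1 and Eomes were at 0 in both WT libraries and at 7 and 11 and at 5 and 18 counts in p53-/- libraries, and the part of such cells was not tested.

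Genes that bring IELs to the epithelium and keep them there were read as pairs of receptor and ligand. Ccr9, the homing receptor of SI lymphocytes, was at 0.743 and 1.17 CPM in WT libraries and at 7.58 and 6.32 CPM in p53-/- libraries (log2 fold change 2.86). Its ligand gene Ccl25, made by enterocytes, was at 456 and 394 CPM against 285 and 335 CPM (log2 fold change -0.46). Il2rb, which encodes a receptor chain for IL-15, was at 1.98 and 2.79 CPM against 11.5 and 17.6 CPM (log2 fold change 2.61). Il15, the cytokine that sustains IELs, was at 20.6 and 14.3 CPM against 12.4 and 9.75 CPM (log2 fold change -0.65). In these 2 pairs the receptor gene was higher and the ligand gene lower in p53-/- libraries, without overlap. Of all tested genes, 26.4% were higher and 24.4% lower in this way. The log2 fold change of Ccl25 was close to the median of 10 epithelial genes, -0.46, and neither ligand was scaled to epithelial counts. Of the 12 tested homing genes and the 11 genes of the IL-15 and IL-7 axis, 0 passed the threshold. An unadjusted p under 0.05 was found for 8 and 5, against 18% of all tested genes. Of these 12 and 11, 5 and 1 passed the filter only with p53-/- libraries (11.9% of all tested genes), which raises the count of homing genes. Some other genes of these lists did not follow the pattern of the 2 pairs. Il7, a cytokine of lymphocyte survival, was at 3.71 and 5.06 against 7.06 and 6.12 CPM. Il15ra, the chain that presents IL-15, was at 5.69 and 4.41 against 12.6 and 8.56 CPM. Among 13 tested IEL transcription factors, Tbx21 and Runx3, known drivers of cytotoxic programmes, had the highest log2 fold changes, 3.42 and 3.18. Tbx21, with 2 and 5 counts in WT libraries, was 1 of 2 factors that passed the filter only with p53-/- libraries. Of the 13, 0 passed the threshold and 4 had an unadjusted p under 0.05, against 18% of all tested genes. Sox13 was among these 4 and was lower in both p53-/- libraries, at 239 and 208 against 130 and 104 CPM (log2 fold change -0.94). In WT libraries this is far above Cd3e, at 0.990 and 1.49 CPM, and the cells that gave the Sox13 RNA were not tested.

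The epithelial side was then described. Btnl1 was at 242 and 264 CPM in WT libraries and at 186 and 180 CPM in p53-/- libraries. It was the only butyrophilin-like gene whose WT and p53-/- libraries were each close together and apart from the other genotype, with a log2 fold change of -0.47 ± 0.175 (SE, 95% interval -0.90 to -0.03, adjusted p = 0.257, edgeR quasi-likelihood test, Benjamini-Hochberg). Btnl2, whose product inhibits T cell activation, was at 88.4 and 92.1 CPM in WT libraries and at 83.3 and 62.8 CPM in p53-/- libraries (log2 fold change -0.30, 95% interval -0.78 to 0.18). Library 9 was only just below the WT libraries for Btnl2.

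Btnl4 was at 107 and 99.9 CPM in WT libraries and at 122 and 99.3 CPM in p53-/- libraries (log2 fold change 0.09, 95% interval -0.35 to 0.54). Btnl6, whose product reaches the cell surface together with that of Btnl1, was at 294 and 322 CPM in WT libraries and at 330 and 213 CPM in p53-/- libraries (log2 fold change -0.18, 95% interval -0.84 to 0.48). For both genes library 9 was above the WT libraries and library 10 below them, and both intervals reach to either side of 0. Without library 10, the log2 fold change was -0.39 for Btnl1, -0.06 for Btnl2, 0.28 for Btnl4 and 0.15 for Btnl6. Counts of Btnl1 per 100 counts of Btnl6 were 82.3 and 81.8 in WT libraries, 56.4 in library 9 and 84.4 in library 10, so the balance of the pair stood apart in library 9 alone.

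Levels between genes were compared only per length, as RPKM, which divides the CPM by the kilobases of exon. Btnl6 was highest, at 168 and 184 RPKM in WT libraries and 189 and 122 RPKM in p53-/- libraries. Btnl1 followed at 75.0 and 81.8 against 57.8 and 55.8 RPKM, then Btnl4 at 45.1 and 42.0 against 51.1 and 41.7 RPKM, and Btnl2 at 34.2 and 35.6 against 32.2 and 24.3 RPKM. This order held in each of the 4 libraries, and within each genotype the ranges of neighbours did not overlap. The lymphocyte genes were far lower, at 0.192 to 1.22 RPKM in WT libraries and 0.556 to 6.68 RPKM in p53-/- libraries. Among them Trdc was lowest in both genotypes, and in WT libraries the ranges of the other 4 overlapped or touched. In p53-/- libraries Tcrg-C1 and Itgae, at 5.22 and 6.68 and at 4.8 and 4.22 RPKM, were above Cd160 and Cd244a.

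**Figure D4:**
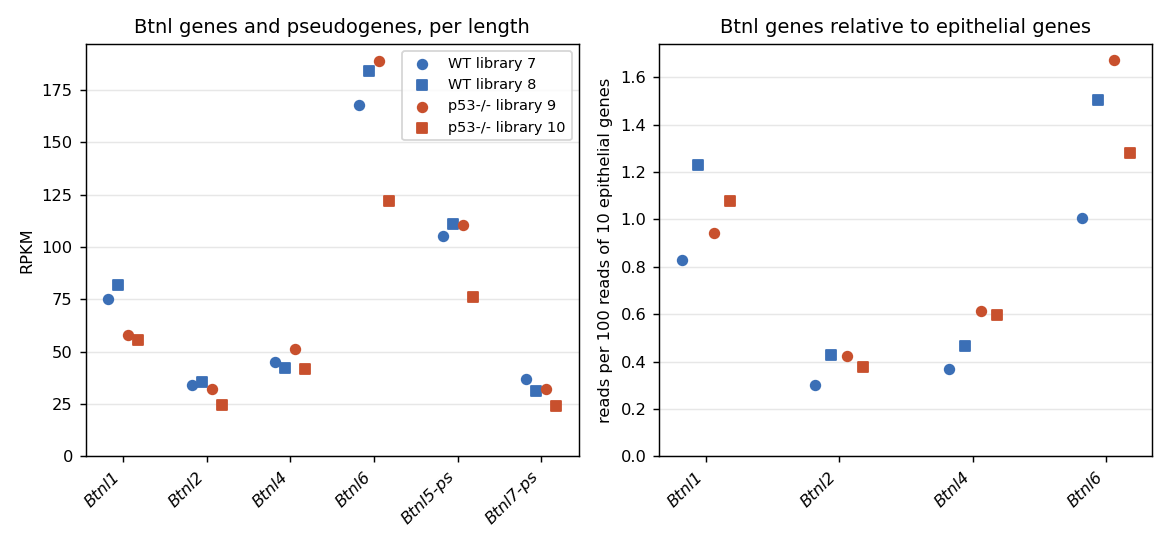
Left, RPKM of the 4 butyrophilin-like genes and of the neighbouring pseudogenes Btnl5-ps and Btnl7-ps in each library. Right, counts of the 4 genes per 100 summed counts of 10 epithelial genes; blue marks WT and orange p53-/- libraries, and orange points lie above blue points for Btnl4 alone.

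The butyrophilin-like genes were read against the amount of epithelium. The 10 epithelial genes, such as Epcam and Cdh1, were detected in all libraries and summed to 29274 and 21431 CPM in WT libraries and to 19761 and 16685 CPM in p53-/- libraries, and 9 of the 10 were lower in both p53-/- libraries (24.4% of all tested genes) with 0 past the threshold and 1 with an unadjusted p under 0.05. Per 100 of their counts, Btnl4 was at 0.367 and 0.466 in WT libraries and at 0.615 and 0.595 in p53-/- libraries, a log2 difference of 0.55. Btnl1 was at 0.827 and 1.23 against 0.944 and 1.08, a log2 difference of 0.00, and Btnl2 and Btnl6 also overlapped. The difference of Btnl1 in CPM was therefore not seen on this scale. Against 15 villus enterocyte genes, Btnl4 was at 0.344 and 0.335 per 100 in WT libraries and at 0.480 and 0.478 in p53-/- libraries, again without overlap.

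Reads could have moved between Btnl4, Btnl6 and their pseudogenes. The transcripts of Btnl4 and Btnl6 are 89.8% identical over 1620 aligned bases, and 10.05% and 7.13% of their windows of 50 bases occur in a neighbour without a mismatch (1.44% and 0.0657% of windows of 100 bases). Btnl1 and Btnl2 share no such window, and Btnl1 is 60.9% identical to Btnl6. The stretch below, again from GENCODE M21 transcripts, is coding base 891 to 1090 of Btnl4 and 882 to 1081 of Btnl6, with the 27 differing bases in capitals, and is shown because a read must cover some of these bases to be placed.
Btnl4: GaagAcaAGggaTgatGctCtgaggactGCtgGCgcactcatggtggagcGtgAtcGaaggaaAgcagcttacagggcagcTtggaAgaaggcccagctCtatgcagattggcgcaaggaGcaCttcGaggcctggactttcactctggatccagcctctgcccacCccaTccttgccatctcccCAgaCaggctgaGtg
Btnl6: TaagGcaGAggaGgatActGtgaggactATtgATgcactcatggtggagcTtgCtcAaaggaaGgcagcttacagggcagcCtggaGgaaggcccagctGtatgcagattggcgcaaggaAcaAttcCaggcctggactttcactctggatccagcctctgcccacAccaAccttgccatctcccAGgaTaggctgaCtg

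The pseudogenes had levels like those of the genes. Btnl5-ps was at 224 and 236 CPM in WT libraries and at 235 and 162 CPM in p53-/- libraries, and Btnl7-ps at 64.8 and 55.2 CPM against 56.6 and 42.1 CPM. Neither passed the threshold, with adjusted p of 0.709 and 0.545 by edgeR's quasi-likelihood test. Of 20 further listed genes of the butyrophilin family, the pair of pseudogenes included, 14 had at most 3 counts in every library, among them 9 with 0 counts in all. The transcription of this family in the SI was thus read almost entirely from Btnl1, Btnl2, Btnl4, Btnl6 and the pair of pseudogenes.

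Regulators of the enterocyte programme were read beside them. Hnf4a, a nuclear receptor of enterocytes that is known to act on butyrophilin-like genes, was at 1454 and 1101 CPM in WT libraries and at 1143 and 777 CPM in p53-/- libraries (log2 fold change -0.41). Cdx1, a homeobox factor of the gut, was at 398 and 303 against 304 and 286 CPM, and Cdx2, its close relative, at 533 and 338 against 231 and 204 CPM (log2 fold change -1.0). Cdx2 alone of the 3 had genotypes apart, and 0 of the 3 passed the threshold. RefSeq promoter windows were on hand for 6 of the 10 genes. The 250 bases before the starts of Btnl2 and Btnl1 are shown with letters of the HNF4 motif in capitals. Of the butyrophilin-like genes, this pair had lower CPM in both p53-/- libraries, which was not seen per epithelial counts. The windows are at chr17:34354572-34354821 and chr17:34376882-34377131 of the plus strand in GRCm38.p6.
Btnl2: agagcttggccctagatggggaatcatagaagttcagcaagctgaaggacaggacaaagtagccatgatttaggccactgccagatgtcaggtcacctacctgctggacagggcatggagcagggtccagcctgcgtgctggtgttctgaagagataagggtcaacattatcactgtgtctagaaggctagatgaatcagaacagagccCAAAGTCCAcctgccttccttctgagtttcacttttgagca
Btnl1: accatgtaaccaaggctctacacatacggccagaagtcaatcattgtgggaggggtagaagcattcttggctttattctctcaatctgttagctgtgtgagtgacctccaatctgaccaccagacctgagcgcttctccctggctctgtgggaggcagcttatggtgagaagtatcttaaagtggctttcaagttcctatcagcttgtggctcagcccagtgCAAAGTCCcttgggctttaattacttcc

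The Btnl2 window held the motif CAAAGTCCA, 41 to 33 bases before the start, which 0.384% of 32851 windows in RefSeq hold on either strand. The Btnl1 window held its core CAAAGTCC, 28 to 21 bases before the start, which 1.2% of windows hold, and this shorter form was looked for after the Btnl1 window had been read. Neither of these forms was in the windows of Btnl4 and Btnl6. The HNF4 form CAAAGGTCA, held by 0.426% of windows, was searched on both strands and was not in the windows of the 4 butyrophilin-like genes. Neither was the CDX form TTTATGG, held by 2.43% of windows, nor the TATA box TATAAA, held by 12.4% of them. A further CDX form, TTTATTG, is held by 4.2% of all windows and was also not in these 4. The Btnl4 window lies inside the Btnl4 gene of GENCODE M21, outside its exons. A match of letters is a description of the window and no site.

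Ahr was at 10.1 and 10.5 CPM in WT libraries and at 14.9 and 18.1 CPM in p53-/- libraries. The genotypes did not overlap, and the log2 fold change was 0.68 ± 0.257 (SE, 95% interval 0.03 to 1.32, adjusted p = 0.261, edgeR quasi-likelihood test, Benjamini-Hochberg). Per length it was at 1.65 and 1.71 RPKM in WT libraries and at 2.42 and 2.94 RPKM in p53-/- libraries. Arnt, the partner with which the receptor binds DNA, was at 49.2 and 52.4 CPM against 42.8 and 37.0 CPM (log2 fold change -0.35). Tiparp, a target that represses the receptor, was at 44.6 and 40.8 CPM in WT libraries and at 29.2 and 28.8 CPM in p53-/- libraries (log2 fold change -0.56, adjusted p = 0.173 in the edgeR quasi-likelihood test). Ahr and Tiparp therefore differed in opposite directions.

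The other targets of the receptor gave no single direction. Ahrr, its repressor, had 14 and 44 counts in WT libraries and 74 and 53 counts in p53-/- libraries. Cyp1a1, a detoxifying enzyme and the classical target, had at most 4 counts in any library, and a difference in it was not detectable at this depth. Cyp1b1, a related enzyme, was at 1.92 and 7.92 CPM against 2.41 and 6.72 CPM with overlapping genotypes. Il17a, a cytokine of T cells that the receptor is known to affect, had 0 counts in WT libraries and 17 and 16 counts in p53-/- libraries, at least 4.05-fold higher with 3 counts allowed in each WT library. Of 16 listed genes of this pathway 11 were tested, 0 passed the threshold and 2 had an unadjusted p under 0.05 (18% of all tested genes). In both p53-/- libraries 4 were lower (24.4% of all tested genes) and 1 was higher (26.4%). The 1 higher gene was Il17a, which passed the filter only with its p53-/- libraries. The median log2 fold change of the 11 was 0.00.

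**Figure D5:**
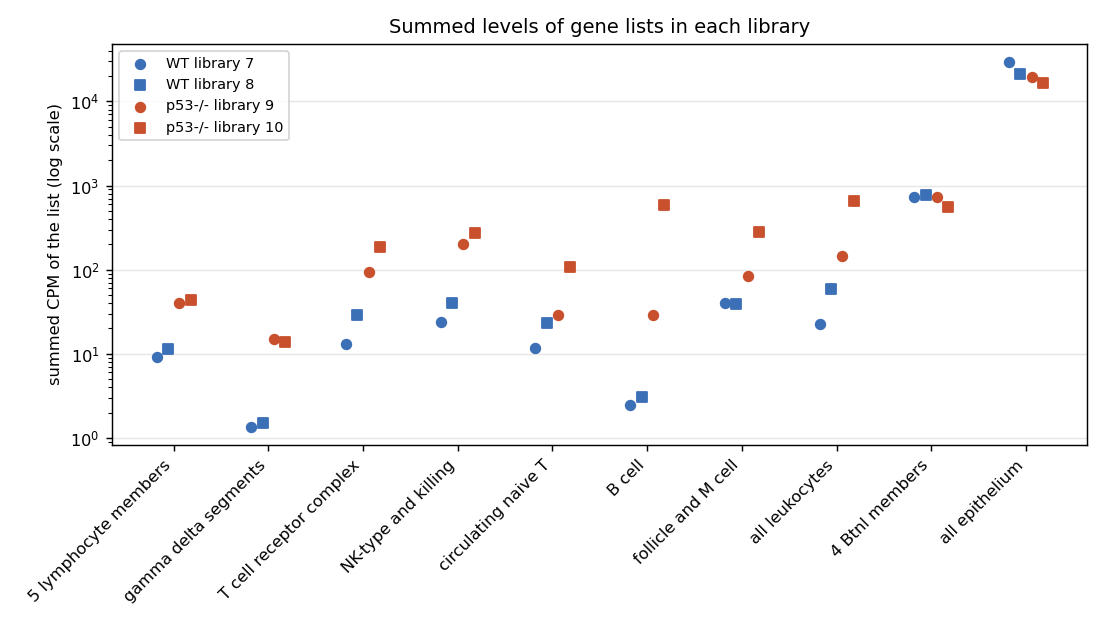
Summed CPM of 10 gene groups in each library, on a log axis; blue marks WT and orange p53-/- libraries. In the sums of lymphocyte genes and gamma delta segments library 10 (orange square) lies beside library 9 (orange circle), whereas in B cell, naive T cell, follicle and leukocyte genes it lies far above.

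The ratio of library 10 to library 9 was smaller for the lymphocyte genes than for the B cell genes. The 5 genes together, with Itgae the main part, summed to 9.10 and 11.4 CPM in WT libraries, 40.1 CPM in library 9 and 43.7 CPM in library 10, while one by one Itgae was lower and the other 4 were higher in library 10, Cd244a by 1.52 times. Without library 10 the log2 fold changes were 1.54 for Trdc, 2.81 for Tcrg-C1, 2.44 for Itgae, 1.44 for Cd160, 1.28 for Cd244a and 0.58 for Ahr. The 5 genes of all leukocytes, Ptprc among them, summed to 22.4 and 59.1 CPM in WT libraries, 145 CPM in library 9 and 658 CPM in library 10, and the 10 macrophage and dendritic cell genes to 55.6 and 127 against 178 and 563 CPM. Leukocyte genes of several kinds were thus higher in p53-/- libraries beside the IEL genes. The part of follicles or other leukocytes in the levels of Itgae, Itgb7, Cd160, Cd244a and the receptor genes was not tested.

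The calls depended on the test. DESeq2 on the same genes put 3 of the 10 past the threshold, Itgae, Tcrg-C1 and Cd244a, all higher in p53-/- SI, where it called 4.93% of all tested genes higher. Without WT library 7 or without WT library 8, edgeR called 2 of the 10 higher, in fits that called 1.87% and 3.98% of all tested genes higher. Without p53-/- library 9 or 10 it called 0 of the 10, where 0.452% and 0% of all tested genes were called higher. Across the 149 genes of the pathway lists, 99 were tested, 41 of them admitted by the filter only with their p53-/- libraries. Among the 99, 3 rose, 0 fell, 61 had an unadjusted p under 0.05 (18% of all tested genes), and 43 passed as higher in DESeq2 (4.93%).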

How the data were processed

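Poly-A RNA of SI from 2 WT and 2 p53-/- mice was sequenced, 1 library per mouse. Per gene, the raw read counts that the authors deposited carry no normalization, and the submitters' processing notes list fastp, HISAT2 2.0.5, featureCounts 1.5.0-p3 and DESeq2 1.20.0. The genome build, annotation and strand of counting are not given in the sources used here, so reads of near-identical or overlapping genes could have been split, and no gene coordinates are given from the table. Column names give the genotype and a number but not the replicate of the labels. The paper calls its data points biological replicates, and libraries of 1 genotype were further apart than sampling noise allows (chi-square per degree of freedom 48.0 for WT and 69.5 for p53-/-), which separate preparations of 1 animal could also do.

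Library sizes were scaled by TMM and low genes removed by filterByExpr. The 16094 genes left were tested between genotypes, two-sided, by the quasi-likelihood test of edgeR 4.0.16 in R 4.3.3 with Benjamini-Hochberg adjustment over all of them and a threshold of 0.05. The standard error of a log2 fold change is its size divided by the square root of F, and 95% intervals use the total (prior and residual) degrees of freedom of the fit. The spread rests on 2 mice per genotype. Scripts were tested on simulated data. Exon lengths and transcripts came from GENCODE M21, and promoters from RefSeq. Floors of 3 counts cover counting error only. Alternatives were other scaling factors, DESeq2 1.42.0, the likelihood ratio test, other filters, receptor segments removed, and omission of each library. The 10 genes and all lists were chosen with earlier results of these data known. Genes named were the 10, their direct partners and list genes past the threshold. Up to 3 genes per list with the largest log2 fold change were also named. Cd7, Il7, Il15ra, Sox13, Ddx3y, Xist, Rn18s-rs5, Btnl5-ps and Btnl7-ps were named after their values were seen. So were the marker genes Epcam, Ptprc, Ncr1 and Eomes.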

Additional observations from a re-analysis of the deposited data

How the results depend on the processing

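No paired analysis was possible because the columns of the count table carry no replicate numbers. Of 16094 tested genes, 48 were higher and 31 lower in p53-/- SI. The counts were 29 and 20 with upper-quartile factors, 26 and 20 with library sizes only, 794 and 643 with DESeq2, and 833 and 462 with the likelihood ratio test. They were 1433 and 761 of 27841 genes when unfiltered, and 24 and 18 of 13863 genes when every sample needed 10 counts. With each library left out in turn they ran from 0 to 680 and from 0 to 344, the 0 being without p53-/- library 10. Of the 10 genes 0 were called in the main test. DESeq2 called 3 of them higher (794 of 16094 tested genes), the likelihood ratio test 2 (833 of 16094) and the unfiltered fit 3 (1433 of 27841). With every library kept, 0 of the 10 were called lower under any alternative. Of the pathway genes 3 were higher, with 1 by library sizes only, 43 by DESeq2, 49 by the likelihood ratio test, 61 when unfiltered and 0 to 36 with a library left out. Pathway genes lower numbered 0, with 1 by DESeq2, 1 by the likelihood ratio test, 2 when unfiltered and 0 to 1 with a library left out. With a library left out, the log2 fold change ran from -0.067 (without p53-/- library 9) to 0.28 for Btnl4 and from -0.54 to 0.15 (without p53-/- library 10) for Btnl6, so that both turned, and the other 8 genes kept their direction under every alternative in which they were tested. Leaving out the filter moved the median log2 fold change of all genes to 0.15. The cause of these differences was not tested. Tcrg-C1 was not tested with at least 10 counts in every sample, nor Tcrg-C1 and Trdc with receptor segments left out. The WT counts of Trdc, Tcrg-C1 and the variable segments limit the precision of their fold changes.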
